A study of Homo sapiens and Mus musculus with 33 samples.

Results

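Jurkat cells given camptothecin (CPT) were compared directly with Jurkat cells given etoposide (ETO) by bulk SLAM-seq, which counts newly made and total RNA at 3′ UTRs. The members were the 6 libraries of the series titled with these drugs, 3 with 50 nM CPT and 3 with 1 µM ETO, out of 33 samples in all. They were chosen by their titles. Both groups came from Jurkat clone E6-1, a human T cell leukaemia line, and all 6 libraries were titled as labelled with 4-thiouridine (4sU), a uridine analogue that cells build into new RNA. Treated RNA was reacted with iodoacetamide, after which incorporated 4sU is read as C where the gene has T. Reads counted as converted in the deposited data stand for new RNA, and all reads for total RNA. The sources used here do not give the number of conversions this takes. They also do not give the length of drug treatment or the dose and time of 4sU. The doses differ, so the drug and its dose cannot be told apart. Control Jurkat libraries labelled with 4sU (n = 3) are given as levels, and they entered a fit only in the alternative with all 9 libraries.

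CPT traps topoisomerase I, an enzyme that nicks a single strand of DNA to release the twist that builds up around a moving RNA polymerase. ETO traps topoisomerase II, which cuts both strands to pass DNA through DNA. Poisoned complexes of either kind are processed into DNA breaks, and topoisomerase I is the enzyme more closely tied to the elongation of long transcripts.

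CPT libraries held 19049329 to 23892944 reads over 3′ UTRs and ETO libraries 24760590 to 40839684. Of these, 234233 to 294359 were converted with CPT and 533955 to 885130 with ETO, so new RNA was measured less precisely with CPT. Molecular identifiers are not named in the labels, so counts may hold PCR copies, and whether replicates were separate cultures is not stated in the labels. P-values therefore reflect the spread among these 6 libraries alone, and that spread may be purely technical. No spike-in is named either, and fewer cells cannot be told apart from less RNA per cell. T cell markers were present, with summed levels of 2603 to 2658 CPM (reads scaled to library size) with CPT and 2458 to 2482 with ETO over the 9 of 11 markers in the tables. B cell and myeloid markers summed to 8.01 to 9.11 with CPT and 4.67 to 6.04 with ETO. Of those 11 markers 6 were under 1 CPM in every library, and 0 of the 4 tested passed in edgeR (named below), where 29.6% of all features did. Erythroid and fibroblast markers summed to 17.6 to 24.8 with CPT and 12.1 to 15.4 with ETO, nearly all of it COL1A1, a collagen gene, with 9 of the 10 under 1 CPM and 5 at 0. COL1A1 was higher with CPT in total RNA by 0.46 ± 0.15, a call lost without CPT library 3, ETO library 1 or ETO library 3.

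A smaller share of reads was converted in every CPT library than in any ETO library. Without mitochondrial lines, converted reads made up 1.29 ± 0.0188% of reads with CPT, 2.21 ± 0.00610% with ETO and 2.02 ± 0.0504% in control (SD, n = 3 each). Converted reads also carried fewer conversions each, at 2.22 in each CPT library against 2.35 to 2.36 with ETO and 2.22 to 2.24 in control. No CPT library lay within the ETO range on either measure. Mitochondrial lines took 6.03 ± 0.689% of reads with CPT, 2.96 ± 0.0768% with ETO and 1.14 ± 0.0958% in control. They were not protein-coding genes: RNR1 and RNR2, the mitochondrial ribosomal RNAs, held 92.1 to 93.8% of these reads with CPT and 90.7 to 91.4% with ETO, and the rest were transfer RNA lines. Of mitochondrial reads 0.247 ± 0.00541% were converted with CPT and 0.453 ± 0.0217% with ETO. Reads over 3′ UTRs were 62.4 ± 0.913% of mapped reads with CPT and 66.3 ± 0.302% with ETO. For each of these measures the exact permutation test of CPT against ETO (two-sided) gave p = 0.1, which is as low as 3 libraries a group can reach. The part of depth, of labelling or of the mitochondrial share in the gene results below was not tested.

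**Figure D1:**
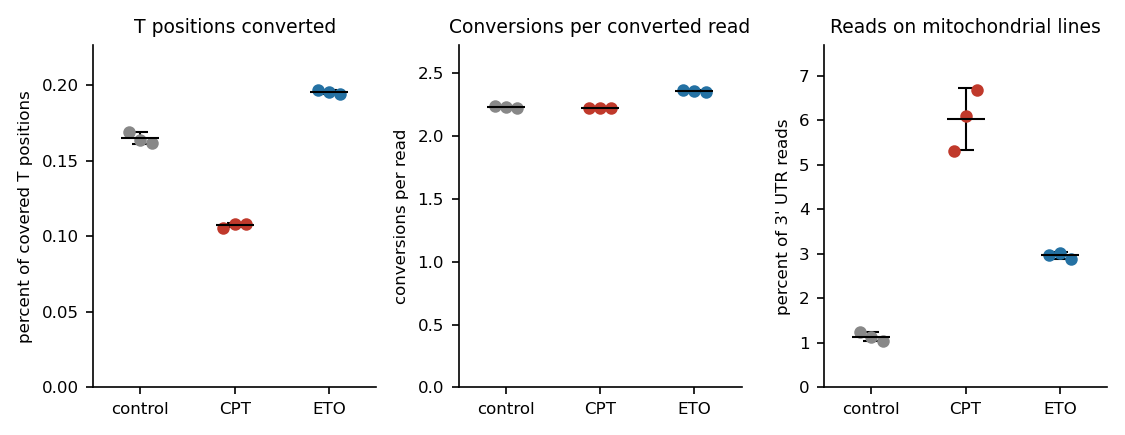
Share of covered T positions read as C (left, percent), conversions per converted read (middle) and share of 3′ UTR reads on mitochondrial lines (right, percent) in each library, with the group mean (line) and SD (bar, n = 3). CPT libraries lay below ETO libraries in the first and second panel and above them in the third.

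The targets of the drugs did not pass the test in total RNA. TOP1, the target of CPT, stood at 340.4, 317 and 302 CPM with CPT and 309.6, 311 and 340.4 with ETO, a log2 difference of −0.07 ± 0.06 (SE). TOP2A, the topoisomerase II of dividing cells, stood at 203, 221 and 217 with CPT and 202, 208 and 198 with ETO (0.00 ± 0.05). TOP2B, the form also present in resting cells, differed by −0.02 ± 0.05 and TOP1MT, the mitochondrial topoisomerase I, by −0.25 ± 0.11. The libraries of the groups overlapped for each of these 4 genes in total RNA. In new RNA TOP2A stood at 562.2, 554 and 671 CPM of converted reads with CPT, 339, 381 and 379 with ETO and 697, 763 and 875 in control, so that both drugs lay below control and the drugs did not overlap. The difference of 0.73 ± 0.18 did not pass (edgeR adjusted p = 0.0717). It passed with all 9 libraries in the fit (adjusted p = 0.0125) and by DESeq2 (0.000997), had adjusted p-values of 0.0639 to 0.380 with 1 library left out, and was −0.15 with sizes from all reads (adjusted p = 0.517). New RNA differed by −0.08 ± 0.22 for TOP1 and 0.33 ± 0.27 for TOP2B, which did not pass. TDP1, which removes topoisomerase I remnants from DNA ends, was lower with CPT, at 58.2, 51.4 and 50.9 against 67.9, 67.0 and 63.7 CPM (−0.38 ± 0.08, edgeR adjusted p = 8.48e-04). Its counterpart for topoisomerase II, TDP2, differed by −0.09 ± 0.10 with overlapping libraries. TDP1 was the only 1 of the 12 topoisomerase and adduct repair genes tested to pass in total RNA, and its new RNA differed by −0.19 ± 0.42 (edgeR adjusted p = 0.929). FLI1, the ETS factor named in the title of the series, differed by −0.18 ± 0.09 in total RNA and −0.64 ± 0.52 in new RNA (edgeR adjusted p = 0.129 and 0.734).

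In new RNA the genes higher with CPT included immediate early genes, ID genes and EOMES, and those lower included MYC and regulators of the T lineage. Of 7367 features tested, 51 passed an edgeR quasi-likelihood test at a Benjamini-Hochberg adjusted p of 0.05 (0.692%), 37 of them higher with CPT (0.502%) and 14 lower (0.19%). A feature is a named gene or an unnamed group of 3′ UTR lines. Levels of new RNA are given in CPM of converted reads, and log2 differences are CPT minus ETO with their SE. Leaving out ETO library 1, 2 or 3 left 25, 27 or 18 calls. The 14 genes described next passed with each library left out in turn, and the other 19 of the 33 called genes that the naming rule gave lost the call at least once.

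JUN, the DNA-binding AP-1 subunit (3′ UTR line chr1:58780791-58782074, minus strand), stood at 1950, 1895 and 2189 CPM of converted reads with CPT, 477, 539 and 458 with ETO and 498, 545 and 498 in control. Every CPT library was above every ETO library, while ETO lay about where control did. The difference was 2.07 ± 0.13 (adjusted p = 9.80e-09), from 496, 551 and 506 converted reads with CPT and 253, 474 and 305 with ETO. JUND, a related subunit that is often the more constant of the family, stood at 727, 884 and 844 with CPT against 292, 268 and 301 with ETO (1.55 ± 0.17, adjusted p = 4.82e-05). EGR1, a zinc finger factor induced within minutes by many signals (chr5:138468082-138469303, plus strand), stood at 932, 702 and 696 with CPT, 247, 237 and 239 with ETO and 384, 431 and 445 in control. ETO libraries were thus the lowest of the 9 for EGR1 and CPT libraries the highest (1.72 ± 0.19, adjusted p = 3.63e-05). IER2, an early response gene, stood at 2276, 2662 and 2812 with CPT and 1541, 1393 and 1370 with ETO (0.88 ± 0.11, adjusted p = 1.40e-04). NFKBIA, the inhibitor that holds NF-kappaB in the cytoplasm, stood at 1058, 953 and 619 with CPT and 356, 373 and 382 with ETO (1.28 ± 0.19, adjusted p = 0.00129). Its lowest CPT library was still above its highest ETO library.

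ID2 and ID3 encode inhibitors that pair with E proteins and keep them off DNA. ID2 (chr2:8683685-8684453, plus strand) stood at 633, 633 and 818 CPM of converted reads with CPT, 217, 231 and 305 with ETO and 47.4, 69.9 and 61.6 in control (1.5 ± 0.20, adjusted p = 4.27e-04). ID3 stood at 4203, 3811 and 4049 with CPT, 2406, 2126 and 2203 with ETO and 1422, 1445 and 1476 in control (0.88 ± 0.08, adjusted p = 1.07e-05). Both drugs lay above control in all libraries for these genes, and CPT lay above ETO. EOMES, the eomesodermin factor found in killer lymphocytes (chr3:27715949-27717069, minus strand), stood at 582, 695 and 1103 with CPT, 154, 227 and 261 with ETO and 37.1, 62.6 and 53.7 in control (1.91 ± 0.24, adjusted p = 2.44e-04). TXNIP, a thioredoxin-binding protein that restrains glucose uptake, stood at 2783, 2765 and 3141 with CPT and 1967, 1724 and 1790 with ETO (0.70 ± 0.10, adjusted p = 5.35e-04).

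MYC, the growth-promoting transcription factor, gave the difference with the smallest p of all features in new RNA. It stood at 212, 227 and 229 CPM of converted reads with CPT, 1752, 1750 and 1525 with ETO and 1135, 1373 and 1350 in control, so that ETO libraries were above control and CPT libraries far below (−2.87 ± 0.15, adjusted p = 1.14e-09). The CPT values rested on 54, 66 and 53 converted reads. SATB1, a genome organiser of thymocytes (chr3:18345377-18349169, minus strand), stood at 303, 499 and 437 with CPT, 995, 1054 and 996 with ETO and 394, 469 and 468 in control (−1.26 ± 0.18, adjusted p = 7.67e-04). CPT overlapped control here, and ETO was the group that stood apart. IKZF2, the Ikaros family member Helios, stood at 358, 488 and 419.6 with CPT, 914, 869 and 1055 with ETO and 301, 328 and 274 in control (−1.13 ± 0.17, adjusted p = 0.00129). Both drugs lay above control on this scale only. In total RNA IKZF2 stood at 168, 171 and 176 CPM with CPT, 275, 296 and 293 with ETO and 176, 187 and 183 in control. Of its reads 3.16 ± 0.509% were converted with CPT, 7.27 ± 0.728% with ETO and 3.34 ± 0.328% in control (SD). JARID2, a cofactor of Polycomb repressive complexes, stood at 853, 702 and 705 with CPT, 1903, 1699 and 1725 with ETO and 803, 928 and 802 in control (−1.20 ± 0.13, adjusted p = 3.24e-05). BCL11B, a factor of T lineage commitment, stood at 1286, 1252 and 1501 with CPT, 2359, 2302 and 2079 with ETO and 1423, 1490 and 1433 in control (−0.70 ± 0.11, adjusted p = 0.00194). In each of these 5 genes the libraries of the drugs did not overlap, which held for 18.3% of all features tested. SATB1, BCL11B, IKZF2 and JARID2 span 100, 103, 153 and 276 kb, and MYC spans 7.52 kb. Gene span is taken up below.

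**Figure D2:**
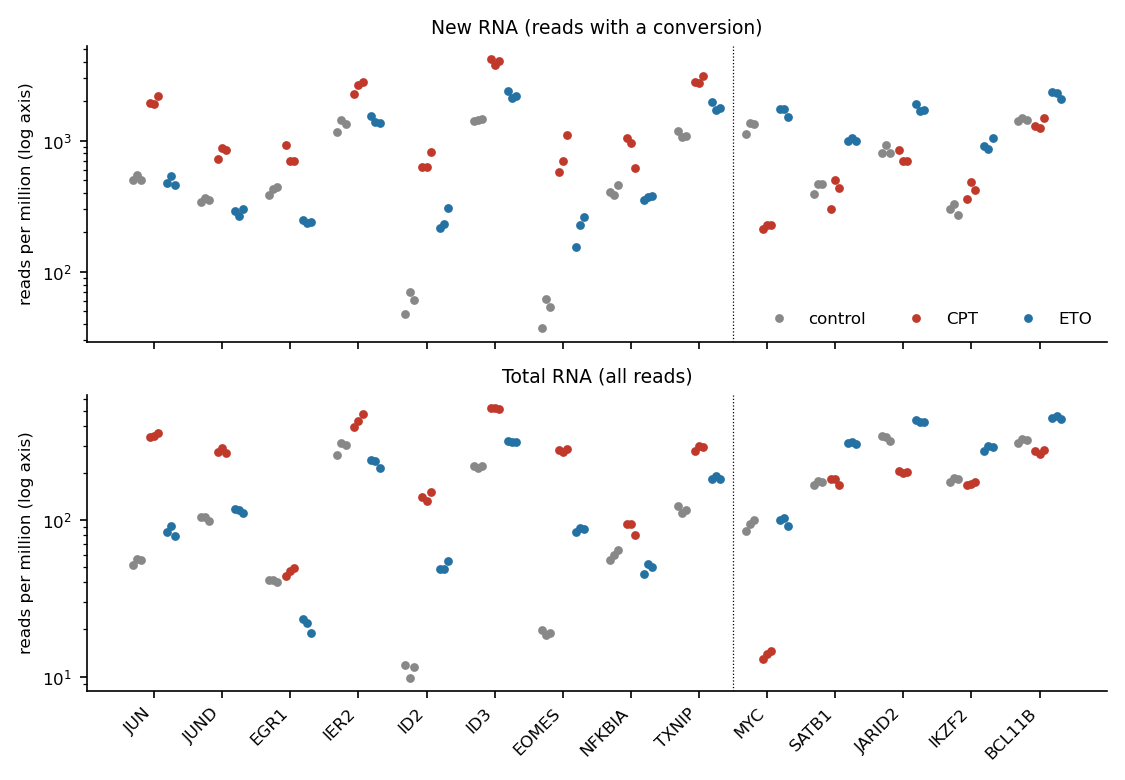
CPM of converted reads (top, new RNA) and of all reads (bottom, total RNA) on log axes for the 14 genes that passed in new RNA with each library left out. Each point is a library, and genes right of the dotted line were lower with CPT. CPT and ETO points do not overlap for any of the 14 in either panel.

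Among the genes whose call was lost with at least 1 library left out, DUSP8, a phosphatase acting on stress kinases, had the largest difference. It stood at 110.1, 155 and 134 with CPT and 32.0, 22.7 and 24.0 with ETO (2.38 ± 0.46, adjusted p = 0.0130), from 28, 45 and 31 converted reads with CPT and 17, 20 and 16 with ETO. DDIT3, the stress factor CHOP, stood at 228, 344 and 359 against 98, 125 and 90.2 (1.60 ± 0.29), and CCNE1, the cyclin that drives entry into S phase, at 330.2, 341 and 273 against 117, 142 and 161 (1.20 ± 0.26). On the lower side ZBTB16, the zinc finger factor PLZF, stood at 15.7, 68.8 and 47.6 with CPT against 160.1, 212 and 222 with ETO (−2.11 ± 0.44), ETV6, an ETS family repressor, at 98.3, 110.1 and 117 against 358, 357 and 309.5 (−1.62 ± 0.27), and CDK6, a kinase partner of D cyclins, at 432, 279 and 307 against 697, 826 and 681 (−1.08 ± 0.19). Their adjusted p-values were 0.00797, 0.0336, 0.0283, 0.00354 and 0.00769 in that order. Of the 51 features, 3 were lines left unnamed that lie in spans of long noncoding RNAs, and they were looked up after their values were seen. The line at chr11:65422798-65445540, in NEAT1, the scaffold of nuclear paraspeckles, stood at 684, 588 and 541 with CPT, 315, 324 and 266 with ETO and 96.4, 115 and 76.0 in control (1.04 ± 0.19). The line in MALAT1, an abundant nuclear RNA, was higher with CPT by 0.66 ± 0.14. The line in DANCR, a host of small nucleolar RNA, was lower, at 11.8, 72.2 and 86.5 with CPT against 326, 202 and 242 with ETO (−2.13 ± 0.45), and its first CPT library lay far below the other 2.

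New RNA was scaled to the converted reads of each library, so a difference is relative to all new RNA. With sizes from all reads instead, the median over the 7367 features moved from −0.01 to −0.89, and 2115 features passed, 9 higher (0.122%) and 2106 lower with CPT (28.6%), against 37 and 14 above. JUN (1.18), EOMES (1.03), EGR1 (0.84), JUND (0.66) and ID2 (0.62) remained higher with CPT on that scale, with edgeR adjusted p-values up to 0.0355. NFKBIA stood at 0.39 (adjusted p = 0.126). IER2 (−0.00113), ID3 (−0.01) and TXNIP (−0.19) turned to values at or below 0 and did not pass. MYC, SATB1, JARID2, IKZF2 and BCL11B had larger differences there, from −1.59 for BCL11B to −3.76 for MYC.

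Promoter sequence was read for the called genes because several of them are textbook targets of known elements. Windows came from the RefSeq promoter table (GRCh38.p14), which held 30 of the 37 features higher with CPT (39 windows) and 10 of the 14 lower (20 windows). Searches covered 10 motifs on both strands, and a match is a description, not a site. The serum response element core, shown in capitals for EGR1, was in 0.0342% of all 35116 promoter windows, in 5 of the 7965 windows of tested features and in 1 of the 39 higher windows, that of EGR1. The JUN-type AP-1 element TGACATCA was in 2.61% of all windows, 1.36% of tested windows and 2 of the 39, those of JUN and KLF6, and in 0 of the 20. The canonical AP-1 element TGACTCA was in 4.95% of all windows, 3.03% of tested windows, 3 of the 39 and 1 of the 20. The higher windows were those of RASSF5 and overlapping windows of DDIT3 that hold the same match, and the lower one was that of BLMH. The cAMP response element TGACGTCA was in 1.85% of all windows, 3.36% of tested windows, 4 of the 39 higher windows (DUSP8, JUND, MYL6 and ZFP36L1) and 2 of the 20 lower ones (JARID2 and PMEPA1). The TATA box TATAAA was in 11.5% of all windows, 5.57% of tested windows, 7 of the 39 and 1 of the 20. EOMES and NFKBIA hold it on the opposite strand only, and ID1 holds it on both strands. The E-box CACGTG was in 7.26% of all windows, 10.3% of tested windows, 5 of the 39 and 2 of the 20. The E2F site TTTCCCGC was in 1.63% of all windows, 2.82% of tested windows, 1 of the 39 and 0 of the 20. The E2F site TTTGGCGC (0.652% of all windows, 1.14% of tested ones), the CHOP and ATF4 element TGATGCAA (0.866% and 0.552%) and a kappaB consensus (0.191% and 0.239%) were in 0 of the 39 and 0 of the 20. The windows are printed 5′ to 3′ on the strand of the gene with the motif in capitals, and the motif's first base is counted from the gene start. They are examples chosen from called genes that hold a motif, with JARID2 as the example lower with CPT. Among them the new RNA call of DUSP8 was lost with some libraries left out, as given above. ZFP36L1, not described so far, differed by 0.78 ± 0.13 in new RNA (edgeR adjusted p = 0.00408).
EGR1, chr5:138465364-138465393, plus strand, motif at −105: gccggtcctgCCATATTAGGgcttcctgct
JUN, chr1:58784096-58784125, minus strand, motif at −67: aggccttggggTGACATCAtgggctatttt
DUSP8, chr11:1572327-1572356, minus strand, motif at −74: ttggctgcaggTGACGTCAggggctttttt
JUND, chr19:18281804-18281833, minus strand, motif at −200: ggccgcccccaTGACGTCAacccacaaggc
ZFP36L1, chr14:68793450-68793479, minus strand, motif at −52: agtggaatgagTGACGTCAcagccgcgctc
EOMES, chr3:27722337-27722366, minus strand, motif at −31: ccccatcctgccTTTATAataaggccaccg
JARID2, chr6:15248733-15248762, plus strand, motif at −111: tgttgtcattgTGACGTCAcaaagggacgg
The same cAMP response element letters thus occurred in genes on both sides of the comparison.

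More features passed in total RNA, where read counts were far higher. Of 16177 features tested, 4781 passed (29.6%), 2203 higher with CPT (13.6%) and 2578 lower (15.9%), and the libraries of the drugs did not overlap for 42.5% of features. Levels here are CPM of all reads without mitochondrial lines, so they show shares of the library and not amounts per cell. All but 2 of the 123 genes that the naming rule gave for total RNA passed with each library left out, the exceptions being COL1A1 and CD3D, which was lost without ETO library 2.

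Among genes of at least 10 CPM in the higher group, the excess with CPT was led by ZNF467, a zinc finger gene, at 13.3, 14.4 and 15.3 CPM with CPT, 1.96, 2.30 and 1.93 with ETO and 0.861, 1.40 and 1.27 in control (2.72 ± 0.20, adjusted p = 1.46e-10). CXCR3, a chemokine receptor of effector T cells, stood at 12.2, 12.5 and 12.2 with CPT against 2.21, 2.53 and 1.79 with ETO (2.42 ± 0.21). GZMA, a granzyme of cytotoxic cells, stood at 128, 109.7 and 115 with CPT, 29.0, 23.4 and 29.9 with ETO and 14.9, 13.9 and 16.1 in control (2.04 ± 0.09). ETO libraries lay above control for ZNF467 and GZMA. CDKN1A, the p21 inhibitor of cyclin-dependent kinases, stood at 41.1, 38.6 and 37.7 with CPT, 8.66, 7.40 and 9.80 with ETO and 6.86, 7.08 and 7.44 in control (2.12 ± 0.12, adjusted p = 3.51e-12). STING1, an adaptor of cytosolic DNA sensing, stood at 16.5, 18 and 14.1 with CPT and 4.91, 3.79 and 3.35 with ETO (1.95 ± 0.18). CRIP2, a LIM domain gene, differed by 2.47 ± 0.23. Lines in the spans of small nuclear RNAs also belonged to the 10 largest: SCARNA2 stood at 192, 185 and 219 with CPT, 44.8, 33.9 and 38.2 with ETO and 0.677, 0.524 and 0.415 in control (2.29 ± 0.09), SCARNA17 differed by 2.5 ± 0.20 and RNVU1-14 by 1.96 ± 0.12. Such RNAs normally lack a poly(A) tail, from which the 3′ library kit named in the labels starts. SCARNA2 had 0 converted reads in every library, although CPT libraries held 3868, 4155 and 3893 reads on it. SCARNA17 also had 0 throughout, so the new RNA of these lines was not tested. RNVU1-14 had 8, 9 and 6 converted reads with CPT and 0, 2 and 9 with ETO. The labelling thus did not show the excess of SCARNA2 and SCARNA17 to be newly made RNA.

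Long genes filled the other end. WWOX, which spans 1113 kb, stood at 3.23, 2.76 and 2.87 CPM with CPT, 15.9, 16.0 and 14.3 with ETO and 14.1, 13.8 and 13.7 in control (−2.45 ± 0.18, adjusted p = 1.94e-10). IMMP2L, a mitochondrial inner membrane peptidase gene of 899.8 kb, stood at 3.18, 3.16 and 3.09 with CPT, 12.8, 12.4 and 12.3 with ETO and 15.5, 12.9 and 14.5 in control (−2.06 ± 0.19). ETO libraries lay just above control for WWOX and just below it for IMMP2L, and CPT libraries lay far below both. TBC1D5 (585 kb) stood at 19.3, 23.1 and 26.3 with CPT against 73.1, 73.3 and 80.7 with ETO (−1.80 ± 0.10), ADK, adenosine kinase (558 kb), at 14.5, 18.1 and 14.9 against 51.0, 52.4 and 58.3 (−1.84 ± 0.11), and PRKCA, protein kinase C alpha (508 kb), at 17.5, 15.8 and 19.9 against 53.2, 57.8 and 56.8 (−1.73 ± 0.10). MYO16 (712 kb), EPHA3 (375 kb), SMYD3 (758 kb) and ZBTB16 (197 kb) were lower, with −1.91 ± 0.17, −1.71 ± 0.16, −1.66 ± 0.11 and −1.77 ± 0.11 in that order. MYC was the shortest of the 10, a gene of 7.52 kb, and had the largest difference among them, at 13.0, 13.9 and 14.5 with CPT against 99.7, 103 and 92.2 with ETO (−2.90 ± 0.09, adjusted p = 2.48e-17).

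**Figure D3:**
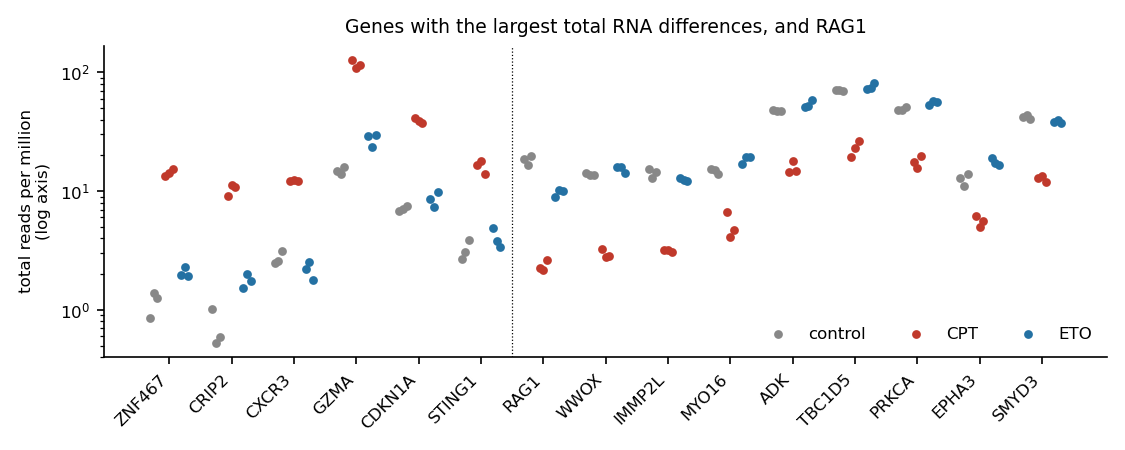
CPM of all reads (log axis) in each library for protein-coding genes among the 10 largest total RNA differences each way, and for RAG1. JUN, MYC and ZBTB16 also belong to these but are not drawn here. Genes right of the dotted line were lower with CPT. CPT points stand clear of ETO points in every gene, and for most genes on the right the ETO points lie near the control points.

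Gene span was related to the difference over the whole table. In total RNA the median difference was 0.10 over 2936 genes under 10 kb, 0.06 over 3497 genes of 10 to 30 kb, −0.01 over 3576 of 30 to 100 kb, −0.13 over 1561 of 100 to 300 kb and −0.60 over 304 of 300 kb and over. The share called lower with CPT went from 13.9% in the shortest group to 50.0% in the longest, and the share called higher from 21% to 0.329%. In new RNA the medians over the same groups were 0.07, 0.07, −0.01, −0.21 and −0.84 (n = 1383, 1991, 2232, 857 and 109), and 27 of the 37 features called higher had a span under 10 kb. Of the 14 called lower, 8 spanned 100 to 300 kb, with SATB1, BCL11B, IKZF2 and JARID2 among them, and 2 spanned 300 kb and over. Whether T lineage genes differed beyond what goes with their span was not tested. Across genes Spearman's rho of span with the difference was −0.24 in total RNA (11874 genes) and −0.16 in new RNA (6572 genes). These genes share the 6 libraries and are not independent, and no p is given.

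**Figure D4:**
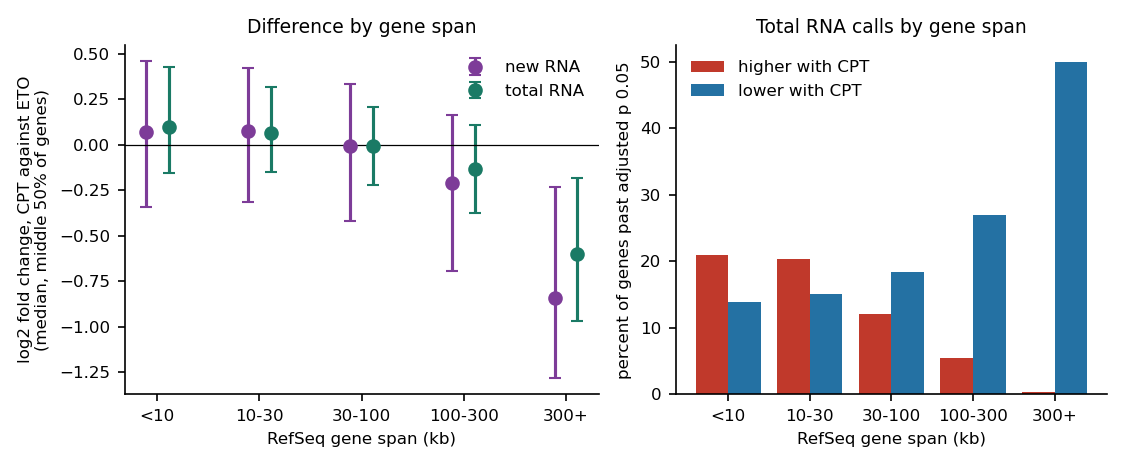
Left, median log2 difference (CPT minus ETO, bars the middle 50% of genes) by RefSeq gene span in kb, for new and total RNA. Right, percent of genes called higher or lower with CPT in total RNA in the same groups. The median falls and the share called lower grows in the groups of 100 kb and over.

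Immediate early genes were mostly higher with CPT in total RNA. Of 33 tested, 25 were higher with CPT and 2 lower, against 13.6% and 15.9% of all features, with a median of 0.88 against 0.01. The new RNA of the list had 7 of 27 higher and 0 lower, and its median was 0.67, or −0.22 on the scale of all reads, where all features had −0.89. This list and those below, with their members, were chosen with earlier results of these data known. The list counts are therefore descriptions and not tests. JUN stood at 341, 347 and 360.2 CPM with CPT, 83.9, 92.4 and 79.1 with ETO and 51.7, 56.3 and 55.9 in control (1.97 ± 0.06). JUND stood at 271, 291 and 269.9 against 117, 116 and 111 with ETO (1.20 ± 0.06), and IER3, an early response gene linked to cell survival, at 156, 161 and 179 against 74.5, 75.9 and 69.9 (1.1 ± 0.07). ETO libraries lay below control for IER3 (106, 138 and 138), as for EGR1 (23.5, 22 and 19.1 against 41.7, 41.6 and 40.0). FOS, the usual partner of JUN, was higher with CPT by 2.19 ± 0.25, and the orphan receptor NR4A2 by 2.78 ± 0.73. Neither met the full naming rule for the 10 largest differences above. That rule asks for at least 10 CPM in the higher group and no overlap between libraries. ZFP36L1, an RNA-binding protein that speeds decay of AU-rich messengers, was higher by 0.88 ± 0.06, whereas the related ZFP36L2 (−0.32 ± 0.08) and SRF, the factor that binds the serum response element (−0.38 ± 0.06), were the 2 lower members. FOS, NR4A2, ZFP36L2 and SRF here, and AEN, POLA1, TYMS, TCF4 and TAL1 further on, were picked after their values were seen.

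Further lists had more members higher than lower with CPT, where 13.6% of all features were higher and 15.9% lower. Of 23 p53 targets 11 were higher and 2 lower (median 0.22). Besides CDKN1A, the stress gene GADD45B stood at 33.2, 35.6 and 44.1 against 14.5, 11.0 and 15.3 (1.40 ± 0.13), and BBC3, the BH3-only death gene PUMA, at 42.3, 46.7 and 53.4 against 27.2, 29.6 and 20.4 (0.81 ± 0.12). TRIAP1 (−0.45 ± 0.05) and AEN were the lower members. In new RNA 0 of 18 p53 targets passed (median 0.24), CDKN1A included (1.35 ± 0.83, edgeR adjusted p = 0.616). The activity of p53 itself was not tested. Of 25 BCL2 family and caspase genes 8 were higher and 1 lower, with BMF, another BH3-only gene, at 1.65 ± 0.27, CASP8, the initiator caspase of death receptors, at 0.67 ± 0.08, and BID at −0.41 ± 0.06. Of 22 interferon and MHC class I genes 12 were higher and 0 lower (median 0.41). HLA-B stood at 167, 153 and 161 with CPT, 86.3, 90.7 and 90.7 with ETO and 62.1, 65.1 and 63.6 in control (0.77 ± 0.06), B2M, the light chain of class I molecules, at 1204, 1159 and 1239 with CPT, 790.2, 732 and 762 with ETO and 502, 480.4 and 609 in control (0.59 ± 0.04), and IRF7, an interferon regulator, at 26.7, 27.9 and 25.2 with CPT, 11.2, 11.4 and 11.4 with ETO and 5.54, 4.87 and 6.74 in control (1.16 ± 0.12). In these 3 genes CPT was above ETO and ETO above control in every library. Of 10 members tested in new RNA 0 passed (median 0.40). Of 18 quiescence and antiproliferative genes 7 were higher and 0 lower (median 0.52), among them BTG1 (0.99 ± 0.08), KLF2, a factor of resting T cells (0.76 ± 0.12), and the arrestin-like ARRDC3 (1.14 ± 0.13). Of 18 NF-kappaB genes 7 were higher and 1 lower, including NFKBIA (0.79 ± 0.08), RELB (0.94 ± 0.12) and TRAF1 (1.28 ± 0.27).

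Cell cycle lists are given by phase, beside 13.6% higher and 15.9% lower over all features. Of 32 G1/S and replication genes 16 were higher with CPT and 2 lower (median 0.17). CCNE1 stood at 93.7, 84.4 and 85.8 CPM with CPT, 40.9, 46.2 and 47.7 with ETO and 37.9, 39.1 and 42.4 in control (0.90 ± 0.08), and E2F1, the S phase regulator, at 139, 131 and 141 with CPT, 91.8, 84.0 and 81.2 with ETO and 53, 60.5 and 56.6 in control (0.61 ± 0.07). CDT1 and CDC6, which load the replicative helicase, were higher by 0.56 ± 0.06 and 0.55 ± 0.06. The 2 lower members, POLA1 (−0.67 ± 0.10) and TYMS (−0.29 ± 0.04), are a replicative polymerase and thymidylate synthase. In new RNA 1 of 27 passed (median 0.41, and −0.48 with sizes from all reads). Of 37 G2/M genes 9 were higher and 4 lower, the latter a smaller share than over all features (median 0.03). PLK1, a mitotic kinase, stood at 125, 139 and 131 with CPT, 90.0, 91.2 and 95.7 with ETO and 227, 204 and 188 in control (0.44 ± 0.06), so both drugs lay below control and ETO the lower. Of the 12 D cyclin and CDK inhibitor genes 5 were higher and 4 lower, with the inhibitor CDKN2D at 0.63 ± 0.06 and CDK6 at −1.24 ± 0.05. Of 11 histone lines 7 were higher and 2 lower (median 0.44), among them H1-10, a linker histone (0.67 ± 0.06).

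Ribosome biogenesis genes were mostly lower with CPT than with ETO, where 15.9% of all features were lower and 13.6% higher. Of its 36 tested genes 31 were lower with CPT and 0 higher, and all 36 fitted values were negative (median −0.47). NPM1, a nucleolar chaperone, stood at 1136, 1153 and 1099 CPM with CPT, 1634, 1650 and 1704 with ETO and 1984, 1931 and 1951 in control (−0.63 ± 0.04, adjusted p = 8.19e-12). NCL, nucleolin, stood at 805, 843 and 913 with CPT, 1260, 1238 and 1119 with ETO and 952, 1037 and 983 in control (−0.57 ± 0.05), and DDX21, a nucleolar helicase, at 492, 516 and 540.3 with CPT, 768, 762 and 724 with ETO and 673, 616 and 586 in control (−0.61 ± 0.05). ETO libraries were above control for NCL and DDX21 and below it for NPM1, while CPT libraries were below control for all 3. NOP16 differed by −0.85 ± 0.07. In new RNA 0 of 33 passed, with a median of −0.48 and −1.37 with sizes from all reads. Cytosolic ribosomal proteins had 24 of 77 lower and 6 higher with a median of only −0.05, among them RPL14 (−0.35 ± 0.04) and RPS23 (−0.33 ± 0.03). These genes have near-identical pseudogene copies, so their counts are less certain. Translation factors had 13 of 26 lower and 2 higher, among them EIF5A (−0.59 ± 0.09) and EIF2S3 (−0.49 ± 0.05). Heat shock and chaperone genes had 12 of 20 lower and 3 higher, with the mitochondrial chaperonins HSPD1 at 595, 607 and 601 against 884, 906 and 907 (−0.65 ± 0.04) and HSPE1 at −0.58 ± 0.05.

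The next lists, metabolic ones first, are again read against 15.9% lower and 13.6% higher over all features. Glycolysis and hypoxia genes had 11 of 20 lower and 4 higher (median −0.22), with LDHA, lactate dehydrogenase A, at 1079, 1099 and 1050 against 1300, 1303 and 1375 (−0.37 ± 0.04) and ENO1, enolase, at −0.34 ± 0.04. Nuclear-encoded respiratory chain genes had 10 of 26 lower and 0 higher, with CYCS, cytochrome c, at 229.9, 232 and 223 against 292, 301 and 293 (−0.44 ± 0.05). Of 24 cholesterol and fatty acid synthesis genes 9 were lower and 2 higher. ACACA, acetyl-CoA carboxylase, a gene of 322 kb, stood at 18.8, 18 and 21.6 with CPT, 54.7, 48.2 and 48.4 with ETO and 44.9, 49.2 and 47.7 in control (−1.44 ± 0.10), whereas FASN, fatty acid synthase, stood at 94.0, 99.9 and 98.2 with CPT, 144, 137 and 140 with ETO and 188, 190.1 and 184 in control (−0.60 ± 0.06). Both drugs lay below control for FASN, and CPT alone for ACACA. The ATF4 and CHOP list split, with 7 of 27 higher and 9 lower. The stress genes DDIT3 (69.0, 70.1 and 65.4 with CPT against 37.5, 31.0 and 33.7 with ETO, 0.94 ± 0.09) and PPP1R15A (1.11 ± 0.10) were higher, and the amino acid genes PSAT1 (−0.75 ± 0.06) and SLC7A1 (−0.61 ± 0.06) lower. DNA damage and repair genes had 10 of 36 lower and 4 higher, a share of higher calls no greater than that of all features, with PRKDC, the DNA-dependent kinase, at −0.48 ± 0.08, its partner XRCC5 at −0.47 ± 0.05, and UNG, a uracil glycosylase, at 0.43 ± 0.06. Of 9 small nucleolar RNA host genes 4 were lower and 1 higher, with SNHG4 at −1.02 ± 0.12, and SR splicing genes had 5 of 19 on each side, CLK1 at 0.48 ± 0.08 and SRPK1 at −0.56 ± 0.06.

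**Figure D5:**
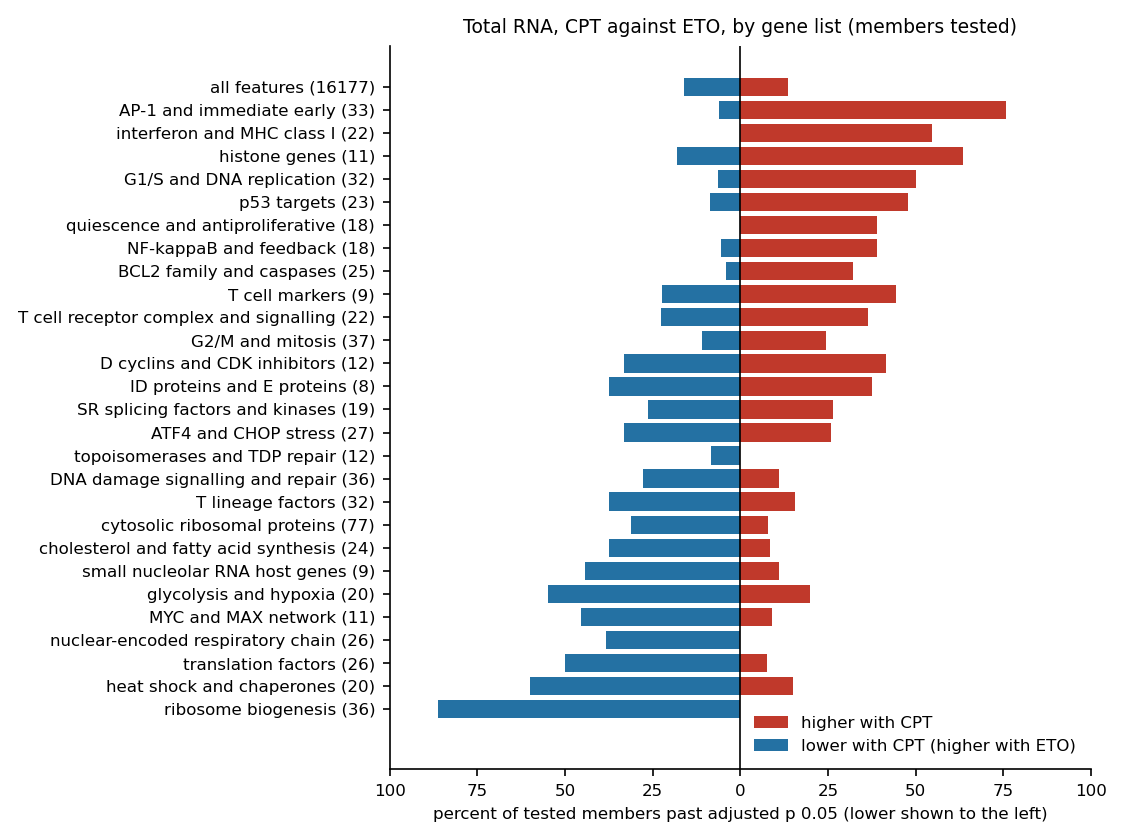
Percent of the tested members called higher (right, red) or lower (left, blue) with CPT in total RNA, for gene lists with at least 8 tested members, with the number tested in brackets and all features in the top row. Among the lists shown, immediate early genes reach farthest to the right (25 of 33) and ribosome biogenesis farthest to the left (31 of 36). Lists and members were chosen with earlier results of these data known.

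Over all features 15.9% were lower and 13.6% higher in total RNA, and 0.19% and 0.502% in new RNA. T lineage factors had 12 of 32 lower with CPT and 5 higher in total RNA (median −0.11), and 4 of 25 lower and 1 higher in new RNA (median −0.34, and −1.23 with sizes from all reads). LEF1, a partner of beta-catenin, stood at 230.2, 211 and 221 CPM with CPT, 486, 497 and 488 with ETO and 637, 651 and 658 in control (−1.22 ± 0.05, adjusted p = 7.41e-15). SATB1 stood at 184, 183 and 168 with CPT, 309, 316 and 308 with ETO and 168, 178 and 176 in control (−0.87 ± 0.05). The groups were ordered differently in these genes: ETO lay below control for LEF1 and above it for SATB1, where CPT and control overlapped. EOMES went the other way at 279, 274 and 286 with CPT, 83.5, 89.7 and 88.2 with ETO and 19.7, 18.4 and 19.1 in control (1.61 ± 0.06). T cell receptor genes had 8 of 22 higher and 5 lower. CD3E, an invariant chain of the receptor, stood at 525, 515 and 530.1 against 286, 298 and 326 (0.72 ± 0.05) and LAT, its adaptor, at 277, 269 and 266 against 149.9, 145 and 147 (0.81 ± 0.05). PTPRC, the phosphatase CD45, was lower (−0.63 ± 0.06). RAG1, the recombinase of immature lymphocytes, stood at 2.24, 2.18 and 2.64 with CPT, 8.99, 10.2 and 10.1 with ETO and 18.5, 16.6 and 19.8 in control (−2.12 ± 0.22), so that both drugs lay below control. The ID and E protein list had 3 of 8 higher, all ID genes (ID1 0.56 ± 0.07, ID2 1.41 ± 0.07 and ID3 0.63 ± 0.05), and 3 lower, TCF3 (−0.36 ± 0.05), TCF4 and TAL1. In the MYC and MAX network 5 of 11 were lower and 1 higher, the MYC antagonist MXD4 (0.86 ± 0.09).

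New and total RNA were read from the same libraries, so they are not independent. Of the 51 features called in new RNA, 47 were also called in total RNA in the same direction, and Spearman's rho of the differences across 7367 features was 0.46. ACTB, ACTG1 and HMGN2 were called in new RNA and not in total RNA. TUBB, a beta-tubulin, was the 1 feature called in opposite directions, at 0.40 ± 0.08 in new RNA and −0.40 ± 0.03 in total RNA. These 4 genes were named after their values were seen, and near-identical copies of them exist in the genome.

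The labelled share of a gene, its converted reads over all its reads, was tested with converted and other reads of each library in 1 fit, relative to the typical gene. Of 7367 features 2 passed (0.0271%), both higher with CPT, and 459 had an unadjusted p under 0.05. The shares as such did not overlap between the drugs for 50.1% of features. HMGN2, a nucleosome-binding protein, had a share of 0.816% ± 0.0385 with CPT, 0.815% ± 0.0124 with ETO and 1.05% ± 0.0355 in control (SD, n = 3). The share of TUBB was 1.46% ± 0.120, 1.55% ± 0.0678 and 1.95% ± 0.0998 in the same order. In both genes the CPT share was about that of ETO, whereas over the reads of all features together, without mitochondrial lines, it was 0.582 times that of ETO. The fitted differences were 0.87 ± 0.11 and 0.78 ± 0.09 (edgeR adjusted p = 0.0185 and 0.0174). Leaving out 1 library at a time left 0 to 2 calls, with 0 calls without CPT library 2 or without any of the ETO libraries and 1 without CPT library 1. MYC had a share of 20.8% ± 0.374 with CPT, 37.7% ± 1.14 with ETO and 27.7% ± 1.13 in control, and JUN of 7.41% ± 0.434, 12.8% ± 0.201 and 19.0% ± 1.22. Relative to the typical gene they differed by −0.34 and −0.01 and did not pass (edgeR adjusted p = 0.836 and 0.995).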

How the data were processed

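RNA of Jurkat cells was measured by 3′ end SLAM-seq in 3 CPT, 3 ETO and 3 control libraries. Tables were made with slamdunk 0.4.3 on GENCODE V33 3′ UTRs, per the file headers, and on GRCh38, per the submitters' processing notes. Per 3′ UTR line they hold the deposited read counts and converted-read counts, both whole numbers. A deposited score of CPM per line was used only to recover mapped reads. The sources used here do not say how many conversions make a read count as converted. Per the labels' protocols the steps used 2 µg RNA, 10 mM iodoacetamide in 50% DMSO at 50 °C for 15 min, and 500 ng for the library.

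The 122255 lines overlap, so they were joined into 68330 groups by strand, each represented by its best-covered line. A group was named for the RefSeq gene (GRCh38.p14) that holds it and ends within 1000 bp of it. The 23932 named genes held 87.1% of reads. Unnamed groups stayed as features, and 16 mitochondrial groups stayed out of the tests. The quasi-likelihood test of edgeR 4.0.16 in R 4.3.3 (filterByExpr, TMM, Benjamini-Hochberg at 0.05) was run on the 6 libraries, and the scripts were tested on simulated data. Library values were compared by exact permutation tests. Named genes are TOP1, TOP1MT, TOP2A, TOP2B, TDP1, TDP2, JUN, EGR1, MYC and FLI1, then the 12 largest and 12 smallest called differences in new RNA, the 10 and 10 in total RNA and the 8 and 8 in the labelled share, each with at least 10 CPM in the higher group and no overlap between libraries, and up to 4 called members per list with the smallest p. Of these, not all are described. Gene lists came from textbook knowledge, and members and lists were chosen with earlier results of these data known. Alternatives were the replicate number as a block, no filter, all 9 libraries in 1 fit, each group as a feature, DESeq2 (1.42.0), RLE factors, sizes from all reads, and leaving out each library.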

Additional observations from a re-analysis of the deposited data

How the results depend on the processing

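The count of features called in new RNA was 18 to 70 with 1 library left out at a time, 109 with a replicate block, 99 with no filter on low counts, 174 with all 9 libraries in the fit, 242 by DESeq2 and 2115 with sizes from all reads, against 51. With those sizes IER2 (−0.0011), ID3 (−0.010), ID1 (−0.16), TXNIP (−0.19) and H3-3B (−0.33) turned below 0 in new RNA. Calls in the labelled share numbered 0 to 2 with 1 library left out, 1 with the replicate block, 24 with no filter and 10 with all 9 libraries, against 2. The cause was not tested. Total RNA calls were 3561 to 5227 under every alternative run, against 4781, and the ratios between library means kept their direction. Same-numbered CPT and ETO libraries did not deviate together (r = −0.057, 0.0088 and −0.032 in new RNA). This cannot exclude pairing, because counting noise could hide a weak shared deviation. Whether the numbers pair the libraries is not known. With the replicate block TOP2A passed in new RNA (adjusted p = 0.0439). New RNA rested on few converted reads per gene, so a gene that did not pass is not shown to be alike between the drugs.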
